A study of Homo sapiens with 28 samples.

Results

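Alternative 5′ splice sites are pairs of donor sites that join the same exon to the next one at 2 different positions, so that the mature RNA holds or lacks the stretch between them. Every event that the deposited splicing table annotates exactly as alt-5′ was taken, 5602 of 100814 events. Many events list the same 2 junctions in opposite orders, and counting each unordered pair of junctions once left 3625 pairs in 2880 genes and 3249 junction clusters. Of these pairs, 3523 shared their 3′ splice site and 102 did not. The value of each event is percent spliced in (PSI), the share of the reads of the junction listed first among the competing junctions. Values here are given in percent and their differences in percentage points. Where the 3′ splice site is shared, a change toward the shorter junction means more use of the downstream donor, nearer to the 3′ splice site. The downstream donor gives the longer exon unless the stretch between the donors is itself spliced. With a shared 3′ splice site, a change toward the longer junction means more use of the upstream donor and the shorter exon. In the other 102 pairs junction length does not by itself tell which donor was used. For 16 pairs both junctions span the same length, so they have no direction.

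RNA-seq libraries of 2 human acute myeloid leukaemia cell lines with a rearranged MLL gene were compared, MOLM13 with MLL-AF9 and MV4;11 with MLL-AF4. All 28 libraries came from cells transduced with a puromycin-selected lentiviral short hairpin, either against the splicing regulator MBNL1 (sh64 or sh65) or non-targeting (shNT). MOLM13 carried sh64 (3 libraries) or shNT (3) after 72 h of selection (day 4 in the study's description), sh65 (4) or a second set of shNT (3), and sh64 or shNT (3 each) at day 12. MV4;11 carried sh64, sh65 or shNT (3 each), so that both hairpins were set against the same shNT libraries. For the sh65 and MV4;11 libraries no source used here gives the day. Only the day 12 libraries are described as biological triplicates, and elsewhere p-values measure the spread between libraries, which may be technical. Day 12 was sequenced on another machine than the rest, each time with its own controls. The libraries hold cultured leukaemia cells only, so no normal blood cells enter the comparisons.

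At a 5′ splice site the U1 small nuclear RNP pairs with the last bases of the exon and the first bases of the intron, and U6 later replaces it. Where donors compete, the outcome depends on how well each pairs with U1 and on proteins bound nearby. MBNL1, a muscleblind-like protein, binds RNA at clusters of the tetramers TGCT or TGCC and of the same tetramers with a C in first place, and it can favour or block a nearby splice site according to its position. It is best known from myotonic dystrophy, in which its sequestration by repeat RNA returns many splicing choices to a fetal form.

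The donors that the results turn on are printed first. They belong to 5 pairs called in the same direction in at least 3 comparisons, and each window holds the last 12 bases of the exon and the first 18 bases of the intron, 5′ to 3′ on the gene's strand, in GRCh37 (hg19). Capitals mark the first 6 intron bases, the part that pairs with U1 and then U6.
MAP4K4 upstream donor, chr2:102483760-102483789, plus strand: ctcaagcctgctGTAAGGattgtgcaggat
MAP4K4 downstream donor, chr2:102483769-102483798, plus strand: gctgtaaggattGTGCAGgatcagttttac
IRF9 upstream donor, chr14:24633332-24633361, plus strand: ctccagagccagGTACGTggcatttctgac
IRF9 downstream donor, chr14:24634153-24634182, plus strand: acttctgcagagGTGAGGctgttctctctg
SMARCB1 upstream donor, chr22:24134043-24134072, plus strand: catcgtcacatgGTAAAAaaacaaaaccta
SMARCB1 downstream donor, chr22:24134070-24134099, plus strand: ctaacactaaggGTGCGTcttcacgagggt
ACAA1 upstream donor, chr3:38167983-38168012, minus strand: ctaccacagctgGTGAGActggtccggggt
ACAA1 downstream donor, chr3:38167635-38167664, minus strand: tgcaaaaagcagGTAAGGtggctccttcat
AC004166.7 upstream donor, chr7:74300232-74300261, minus strand: acttatccttaaGTGAGTcctgggaagagg
AC004166.7 downstream donor, chr7:74299816-74299845, minus strand: tctgtactggaaGTGAGTggggctcctttt

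All 10 windows begin the intron with GT. A donor score was the summed log2 odds of the last 3 exon and first 6 intron bases. The odds set the base frequencies at 312435 annotated donors against equal base frequencies. The score was 4.40 for the upstream and -1.0 for the downstream donor of MAP4K4, the only pair of the 5 whose downstream donor is not annotated. The upstream and downstream donors scored 9.59 and 9.49 in IRF9, 5.99 and 6.33 in SMARCB1 and 7.34 and 7.86 in AC004166.7. In ACAA1 the downstream donor scored higher, at 11.19 against 8.22.

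The depth in reads is unknown, since the table holds shares only. A library had a value for 2759 to 3196 of the 3625 pairs, 2288 pairs had a value in all 28 libraries and 246 in none. MBNL1 itself was checked first and was lower in every knockdown library than in every matching shNT library. With sh64 its level was 2.94, 2.96 and 3.80 RPKM in MOLM13 at day 4 against 18.8, 20 and 28.6 with shNT, 3.62, 3.54 and 3.98 in MV4;11 against 23.3, 25.4 and 18.5, and 4.13, 4.65 and 4.42 at day 12 against 26.5, 26.9 and 25.6. With sh65 it stayed higher, at 8.26, 13, 14.3 and 15.4 RPKM in MOLM13 against 20.2, 19.0 and 17.5, and at 10.7, 12.8 and 12.4 RPKM in MV4;11. The log2 fold change was -2.45 at day 4 (adjusted p = 0.0674, or 0.00328 with same-numbered libraries paired, limma), -2.30 in MV4;11 with sh64, -2.34 at day 12 and -0.85 in MV4;11 with sh65 (adjusted p = 0.00046, 1.96e-07 and 0.0367, limma). The change of -0.57 in MOLM13 with sh65 was not called (adjusted p = 0.209, limma). Of 8 myeloid markers, 7 had a mean of at least 1 RPKM over all libraries, and their summed level was 4090 to 4230 RPKM with sh64 at day 4 and 3980 to 4260 at day 12, against 1550 to 1850 and 1060 to 1210 with shNT. In MV4;11 it was lower on knockdown, at 1700 to 1830 with sh64 and 1060 to 1110 with sh65 against 2120 to 3090, and in MOLM13 with sh65 the groups overlapped, at 996 to 1170 against 1070 to 3380. All 4 genes of the MLL program list (HOXA9, HOXA10, MEIS1, MEF2C) reached 1 RPKM on average over all libraries. Only 3 did within MV4;11 with shNT, MV4;11 with sh64 and MOLM13 with sh64 at day 12. The summed level of the list ran from 14.9 to 44.3 RPKM. No erythroid marker reached 1 RPKM on average, and the erythroid sum stayed at or under 0.115 RPKM. The summed B cell, fibroblast and T cell markers reached at most 1.76, 3.07 and 12.3 RPKM, and 1 of 3 T cell markers passed 1 RPKM on average. The T cell sum was 6.52 to 7.31 with sh64 and 9.52 to 11.1 with sh65 in MV4;11 against 2.43 to 3.72, and 2.92 to 12.3 with sh65 in MOLM13 against 0.785 to 4.17. The part of the marker levels in the PSI changes was not tested.

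Few alternative 5′ splice sites were called as changed on knockdown of MBNL1, and on the unadjusted p the share called was near that of splicing events in general. A pair was called at an unadjusted limma p of 0.01 or less and a PSI difference above 10 points. In MOLM13 with sh64 at day 4, 41 of 2872 tested pairs were called (1.43%), against 1.62% of all junction pairs of every event type. With sh65 in MOLM13, 22 of 2848 were called (0.772%, against 1.16% of all junction pairs). In MV4;11, sh64 gave 37 of 2915 (1.27%, against 1.5%) and sh65 gave 30 of 2931 (1.02%, against 0.816%). At day 12, 55 of 3104 were called (1.77%, against 2.16%). The share called among alternative 3′ splice sites, the event type most like them, ran from 0.831% to 1.7%. Among cassette exons it ran from 0.995% to 3.3%, above that of alternative 5′ splice sites in every comparison but MV4;11 with sh65, a difference that was not tested. At an adjusted p under 0.05 the counts were 5 of 2872 at day 4 (0.233% of all junction pairs passed this rule), 0 of 2848 with sh65 in MOLM13 (0.0236%), 4 of 2915 and 1 of 2931 in MV4;11 with sh64 (0.25%) and sh65 (0.0157%), and 6 of 3104 at day 12 (0.725%). These are smaller shares than among all junction pairs except in MV4;11 with sh65, where 1 pair passed. The pairs that passed at day 4 included SMARCB1, MLXIP, ZNF268 and FANCD2, those in MV4;11 included IRF9, RGS14 and SMIM4 with sh64 and TECPR1 with sh65, and those at day 12 included SMARCB1, MAP4K4, LPAL2, BAZ2B and YIF1A. Of those not described further, the shorter junction fell by 14.7 points in ZNF268, by 12.5 in FANCD2, by 14.2 in RGS14 and by 13.6 in SMIM4 and rose by 10.1 in YIF1A and by 10.6 in LPAL2, and these were picked after their values were seen. This LPAL2 pair rose from 0.0% with shNT and is not the LPAL2 pair named further below. That one moved toward the longer junction by 20.8 points in MV4;11 with sh65. The uncertainty given below for LPAL2 holds for both. The 0 with sh65 in MOLM13 stood beside 202 pairs with an unadjusted p under 0.05 in limma, and the other comparisons had 223 to 370 such pairs. In every called pair the knockdown and shNT libraries did not overlap, as was also so for 7.34% to 16.5% of all tested pairs.

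Leaving out 1 library moved some of these counts. In MOLM13 with sh65 the count rose to 49 of 2653 pairs without the first shNT library of the second set (1.85%, against 2.09% of all junction pairs) and fell to 14 without sh65 replicate 1. In MV4;11 with sh64 it fell to 29 at the lowest and rose to 54 of 2752 without shNT replicate 3 (1.96%, against 2.12% of all junction pairs). At day 4 it fell to 25 without sh64 replicate 1 or without shNT replicate 1. With same-numbered day 4 libraries treated as pairs, 36 of 2856 pairs were called (1.26%, against 1.39% of all junction pairs), and 0 passed an adjusted p under 0.05 in limma, beside 280 with an unadjusted p under 0.05. A call also depended on which listing of a pair was read. Of the called pairs whose other order was tested too, that order was called as well for 17 of 30 at day 4, 7 of 14 with sh65 in MOLM13, 14 of 27 and 6 of 22 in MV4;11 with sh64 and sh65, and 21 of 38 at day 12.

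More called pairs moved toward the longer than the shorter junction in 4 of the 5 comparisons. In shNT libraries the shorter junction took a median of 61.5% over the tested pairs, which leaves more room for a fall than for a rise. That share was 36.7% in pairs called toward the shorter and 64.6% in pairs called toward the longer junction. The part of the starting share in the direction was not tested. At day 4, 27 pairs moved toward the longer and 14 toward the shorter junction, so 34.1% went toward the shorter (exact binomial 95% interval 20.1 to 50.6%, counting error only). Of all junction pairs, 0.892% were called toward the shorter and 0.729% toward the longer junction in that comparison. In MV4;11 with sh64 the split was 15 toward the shorter (0.725% of all junction pairs) and 22 toward the longer (0.769%), at day 12 it was 23 (1.13%) and 32 (1.03%), and in MV4;11 with sh65 12 (0.45%) and 18 (0.366%). With sh65 in MOLM13 it was reversed, at 14 toward the shorter (0.804%) and 8 toward the longer junction (0.356%), or 63.6% toward the shorter (interval 40.7 to 82.8%). All 5 intervals included 50%. The balance turned at day 12 without sh64 replicate 1 (54.2% toward the shorter) and in MOLM13 with sh65 without the second shNT library of the second set (45.0%). With the replicate number as a block it turned in MV4;11, to 12 toward the shorter and 10 toward the longer junction with sh64 and 9 and 8 with sh65. Same-numbered MV4;11 libraries did not deviate together in PSI and share only a number, so this block has little basis. At an adjusted p under 0.05 the balance turned at day 12 (66.7% toward the shorter). Over all tested pairs, called or not, 45.3% to 46.0% had a difference toward the shorter junction with sh64, against 48.7% and 52.6% with sh65, and the median change lay between -0.241 and 0.079 points. Called intron retention pairs weigh on the shares of all junction pairs, with 268 toward the shorter and 25 toward the longer junction at day 4. Of called alternative 3′ splice sites, 42.9% went toward the shorter junction at day 4, 41.3% at day 12 and 67.5% with sh65 in MOLM13. In MV4;11 it was 51.7% with sh64 and 54.1% with sh65. For cassette exons the share was 34.2%, 43.0%, 50.5%, 36.5% and 51.0% in this order, and event types were not tested against each other.

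**Figure D1:**
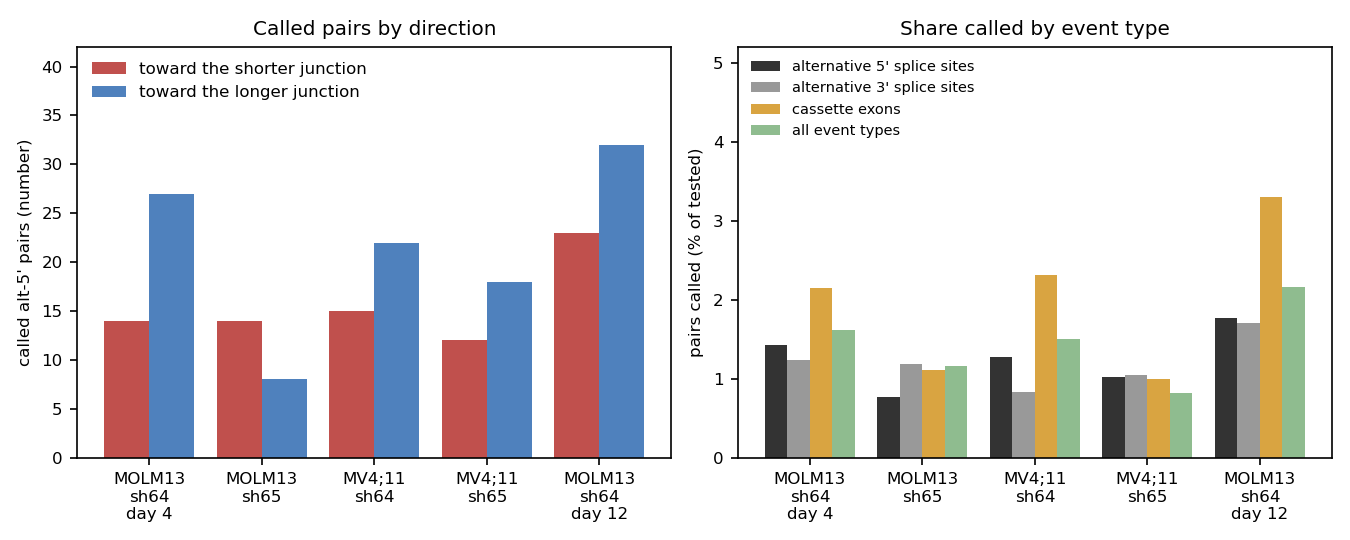
Left, the number of called alternative 5′ splice site pairs in each comparison by direction, from 8 to 32 pairs a bar. Right, the percentage of tested pairs called for alternative 5′ splice sites, alternative 3′ splice sites, cassette exons and all event types together, where alternative 5′ splice sites lie between 0.772% and 1.77%.

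Across the 5 comparisons 151 of 3180 tested pairs were called at least once, in 147 genes. Counted by direction, 132 were called in 1 comparison, 14 in 2 and 7 in at least 3, where 2 pairs count under both directions because they were called in opposite ones. The share called at least once was 4.75%, against 4.99% of all 63299 junction pairs tested, and the share called in the same direction in at least 2 comparisons was 0.66%, against 0.979%. For at least 3 comparisons it was 0.22%, against 0.397%. Of the 21 pairs called alike at least 2 times, 13 moved toward the longer and 8 toward the shorter junction. For 4 of the 21 the repeat lay in the MV4;11 comparisons alone, which share their shNT libraries.

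**Figure D2:**
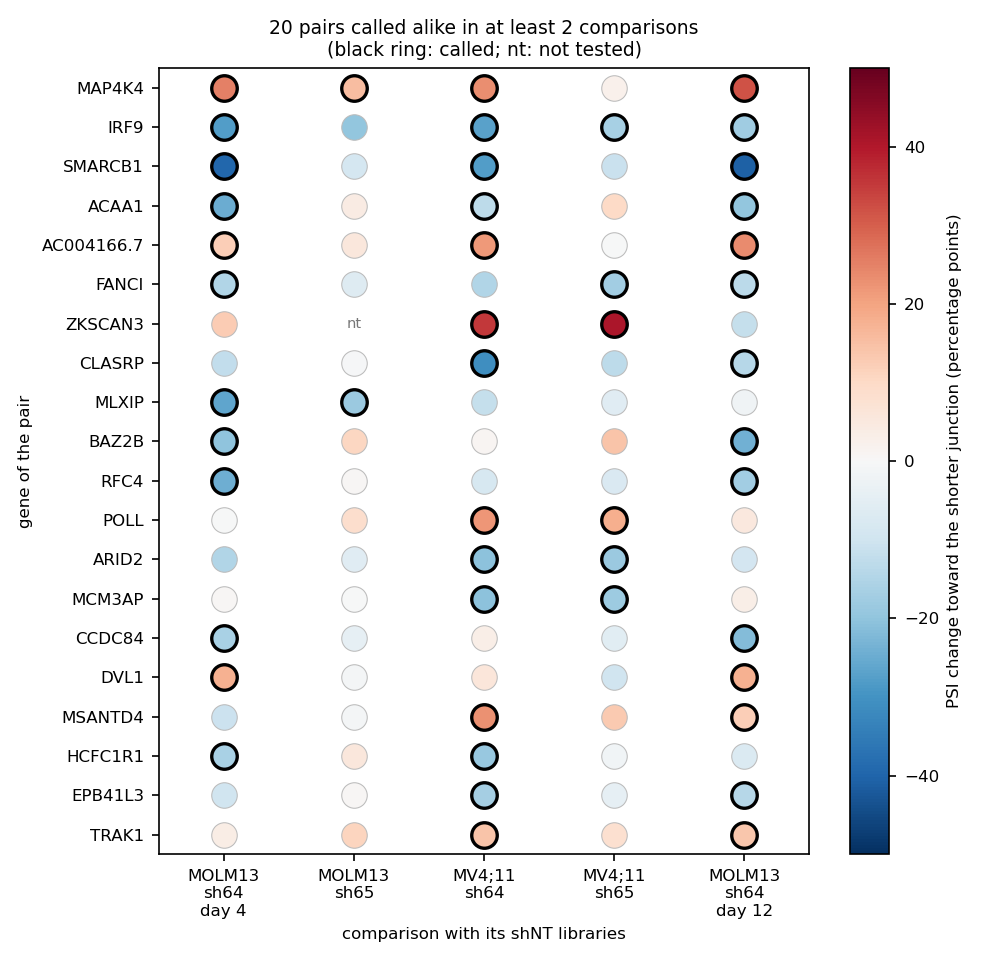
PSI change toward the shorter junction, in percentage points by colour, of 20 pairs called in the same direction in at least 2 comparisons (rows, by gene) in each comparison (columns), where a black ring marks a called pair. MAP4K4 is called in all columns but MV4;11 with sh65 and IRF9 in all but MOLM13 with sh65.

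MAP4K4, which encodes a kinase of stress signalling, moved toward the shorter junction in 4 comparisons. Its donors lie 9 bases apart, at chr2:102483772-102483780, where the annotation has an exon of a noncoding transcript. Here PSI counts the longer junction, the upstream donor GTAAGG printed above. It fell from 83.0, 86.8 and 83.6% with shNT to 50.4, 62.4 and 65.2% with sh64 at day 4, and from 90.8, 86.7 and 90.7% to 55.4, 59.1 and 58.0% at day 12. In MV4;11 it was 88.2, 86.6 and 79.9% with shNT, 58.4, 60.5 and 66.0% with sh64 and 83.3, 81.9 and 82.3% with sh65. In MOLM13 with sh65 it was 67.5, 63.3, 69.4 and 71.7% against 83.5, 81.6 and 85.4%. The groups did not overlap except in MV4;11 with sh65. The shift toward the downstream donor was 25.2 points at day 4 (SE 4.44, adjusted p = 0.228, limma), 31.8 at day 12 (SE 1.65, adjusted p = 0.00668, limma), 23.2 in MV4;11 with sh64 and 15.5 in MOLM13 with sh65, and it was 2.43 (SE 2.45) in MV4;11 with sh65. In MV4;11 the hairpins differed by 20.8 points (SE 2.20, adjusted p = 0.131, limma). At day 4 the call was lost with the libraries paired, without any 1 of the shNT libraries and without sh64 replicate 2 (changes of 24.0 to 26.7 points).

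SMARCB1, a core subunit of the SWI/SNF chromatin remodelling complex, moved toward the longer junction with sh64, so that 27 bases left the exon. Its donors (ENSG00000099956) flank the stretch chr22:24134055-24134081, which overlaps annotated coding exon. It is a multiple of 3 that holds none of the tetramers named above, printed whole because it is the sequence gained or lost.
SMARCB1 stretch, plus strand, GRCh37: gtaaaaaaacaaaacctaacactaagg
The longer junction, without these bases, took 46.5, 48.5 and 56.9% of reads with shNT at day 4 and 88.1, 91.2 and 91.7% with sh64. At day 12 it took 47.6, 49.0 and 51.6% against 88.8, 90.6 and 90.8%, and in MV4;11 55.8, 48.9 and 57.3% against 80, 88.1 and 77.8%. Control cells used both donors about equally, and all 9 sh64 libraries used mainly the upstream one. The shift toward the longer junction was 39.7 points at day 4 (SE 3.23, adjusted p = 0.0442, limma), 40.6 at day 12 (SE 1.27, adjusted p = 0.0017, limma) and 28 in MV4;11 (SE 3.89, adjusted p = 0.144, limma). These calls, on the unadjusted p, held without any 1 library and with the day 4 libraries paired. The paired day 4 fit had an adjusted p of 0.229 in limma. With sh65 the longer junction took 67.5, 57.1, 53.6 and 60.3% in MOLM13 against 50.1, 50.7 and 51.7%, and 65.8, 61.6 and 68.5% in MV4;11. The groups did not overlap, and the differences of 8.82 points (SE 3.37) and 11.3 points (SE 3.12) were not called. In MV4;11 sh64 exceeded sh65 by 16.7 points (SE 3.56, adjusted p = 0.395, limma).

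IRF9, a DNA-binding factor of interferon signalling, moved toward the longer junction in 4 comparisons. Its donors lie 821 bases apart, at chr14:24633344-24634164, a stretch that at least in part overlaps annotated coding exon. The shorter junction took 90.2, 97.5 and 82.4% with shNT and 68.7, 58.9 and 59.1% with sh64 at day 4, and 94.0, 84.1 and 87.7% against 71.4, 73.4 and 67.4% at day 12. In MV4;11 it took 91.3, 87.0 and 90.9% with shNT, 62.7, 62.2 and 62.5% with sh64 and 76.1, 75.4 and 67.6% with sh65. In MOLM13 with sh65 it took 70.3, 72.7, 43.5 and 75.5% against 80, 89.4 and 86.8%, and replicate 3 lay far below the rest. All knockdown groups lay below their controls. The fall was 27.3 points in MV4;11 with sh64 (SE 1.33, adjusted p = 0.0131, limma), the other falls ran from 16.7 to 27.8 points, and the fall of 19.9 points in MOLM13 with sh65 (SE 8.71) was not called. The day 4 call was lost with the libraries paired, without shNT replicate 1 or 2 and without sh64 replicate 2 or 3 (falls of 24.1 to 27.7 points). At day 12 it was lost without any 1 of the sh64 libraries or shNT replicate 3 (16.3 to 19.2 points), and in MV4;11 with sh65 without shNT replicate 1 or 3 or sh65 replicate 2 (15.9 to 17.9 points). IRF9 expression rose at day 12 from 5.58 ± 0.53 to 9.36 ± 0.675 RPKM (SD, n = 3 each), a log2 fold change of 0.66 with an adjusted p of 0.000233 in limma, and did not pass the test in the other comparisons.

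ACAA1, the peroxisomal thiolase that ends fatty acid beta-oxidation there, moved toward the longer junction in the 3 comparisons with sh64. Its stretch of 348 bases lies at chr3:38167653-38168000 and at least in part overlaps annotated coding exon. The shorter junction took 60.6, 68.8 and 55.6% with shNT at day 4 and 37.8, 36.1 and 36.8% with sh64, and 66.5, 72.0 and 73.9% against 51.0, 53.7 and 48.6% at day 12. In MV4;11 it took 65.2, 61.2 and 54.8% with shNT, 48.3, 47.4 and 46.7% with sh64 and 70.8, 68.6 and 72.2% with sh65. The shNT libraries of MV4;11 thus lay between the hairpins, with no overlap on either side. The falls with sh64 were 24.8 points at day 4 (SE 3.70, adjusted p = 0.167, limma), 19.7 at day 12 (SE 2.51, adjusted p = 0.0675, limma) and 12.9 in MV4;11 (SE 2.93, adjusted p = 0.35, limma). With sh65 the difference from shNT was 10.2 points in MV4;11 (SE 3.05) and 4.12 in MOLM13 (SE 3.47), neither called. Set against each other in MV4;11, sh64 lay 23.1 points below sh65 (SE 1.07, adjusted p = 0.0298, limma), and this difference was tested in MV4;11 only. In that test 27 of 3006 pairs were called (0.898%, against 1.08% of all junction pairs), and ACAA1 and ALG10B (11.1 points, adjusted p = 0.00203, limma, named after its value was seen) passed an adjusted p under 0.05 (0.0662% of all junction pairs did). The day 4 call was lost with the libraries paired, and the MV4;11 call was lost without any 1 library except shNT replicate 3 (falls of 10.5 to 13.3 points).

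AC004166.7, a gene known by its clone name, and FANCI, a DNA crosslink repair gene of the Fanconi anaemia pathway, were called 3 times each. In AC004166.7 the donors lie 416 bases apart, and the stretch between them at least in part overlaps annotated 5′ UTR. The shorter junction took 30.7, 35.1 and 33.8% with shNT at day 4 and 50.6, 42.5 and 43.1% with sh64, 24.5, 25.7 and 26.4% against 45.5, 44.5 and 57.4% at day 12, and 35.3, 30.4 and 26.6% against 49.9, 49.0 and 58.1% in MV4;11. The rises were 12.2, 23.6 and 21.6 points, with adjusted p = 0.351, 0.121 and 0.209 in limma. The day 4 rise lost its call without any 1 library and with the libraries paired (changes of 9.55 to 13.6 points without 1 library), the day 12 rise without any 1 of the shNT libraries (23.1 to 24.0 points) and the MV4;11 rise without shNT replicate 2 or 3 or sh64 replicate 1 (19.5 to 22.8 points). With sh65 the change was 5.73 points in MOLM13 and -0.114 in MV4;11, with overlap in both.

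In FANCI the longer junction skips 34 bases that at least in part overlap annotated 5′ UTR. This junction took 10.7, 10.1 and 13.9% with shNT at day 4 and 24.4, 25.7 and 29.4% with sh64, 19.1, 15.2 and 11.9% against 31.8, 26.7 and 28.4% at day 12, and 14.0, 25.8 and 21.9% in MV4;11 against 38.2, 40.0 and 35.7% with sh65. Changes of 15.0 points at day 4 (SE 1.81, adjusted p = 0.106, limma), 13.6 at day 12 and 17.4 with sh65 in MV4;11 were called, and 14.9 with sh64 in MV4;11 (SE 5.03) was not. The day 12 call was lost without sh64 replicate 1 or 3 or shNT replicate 2 (12.2 to 13.8 points), and the sh65 call without shNT replicate 3 or any 1 of the sh65 libraries (16.4 to 18.6 points). The same junctions are also listed in the other order, and there the change toward the shorter junction was -2.51 points at day 4, 2.63 at day 12 and -16.6 with sh65 in MV4;11, none of them called, so the FANCI calls depend on which of its listings is read. MAP4K4, SMARCB1, ACAA1 and AC004166.7 are listed in both orders too, and the other order was called in the same direction in each comparison in which the first was. FANCI expression fell in MV4;11 with sh65 from 13 ± 3.30 to 6.93 ± 0.887 RPKM (SD, n = 3 each), called at an adjusted p of 0.0701 in limma.

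**Figure D3:**
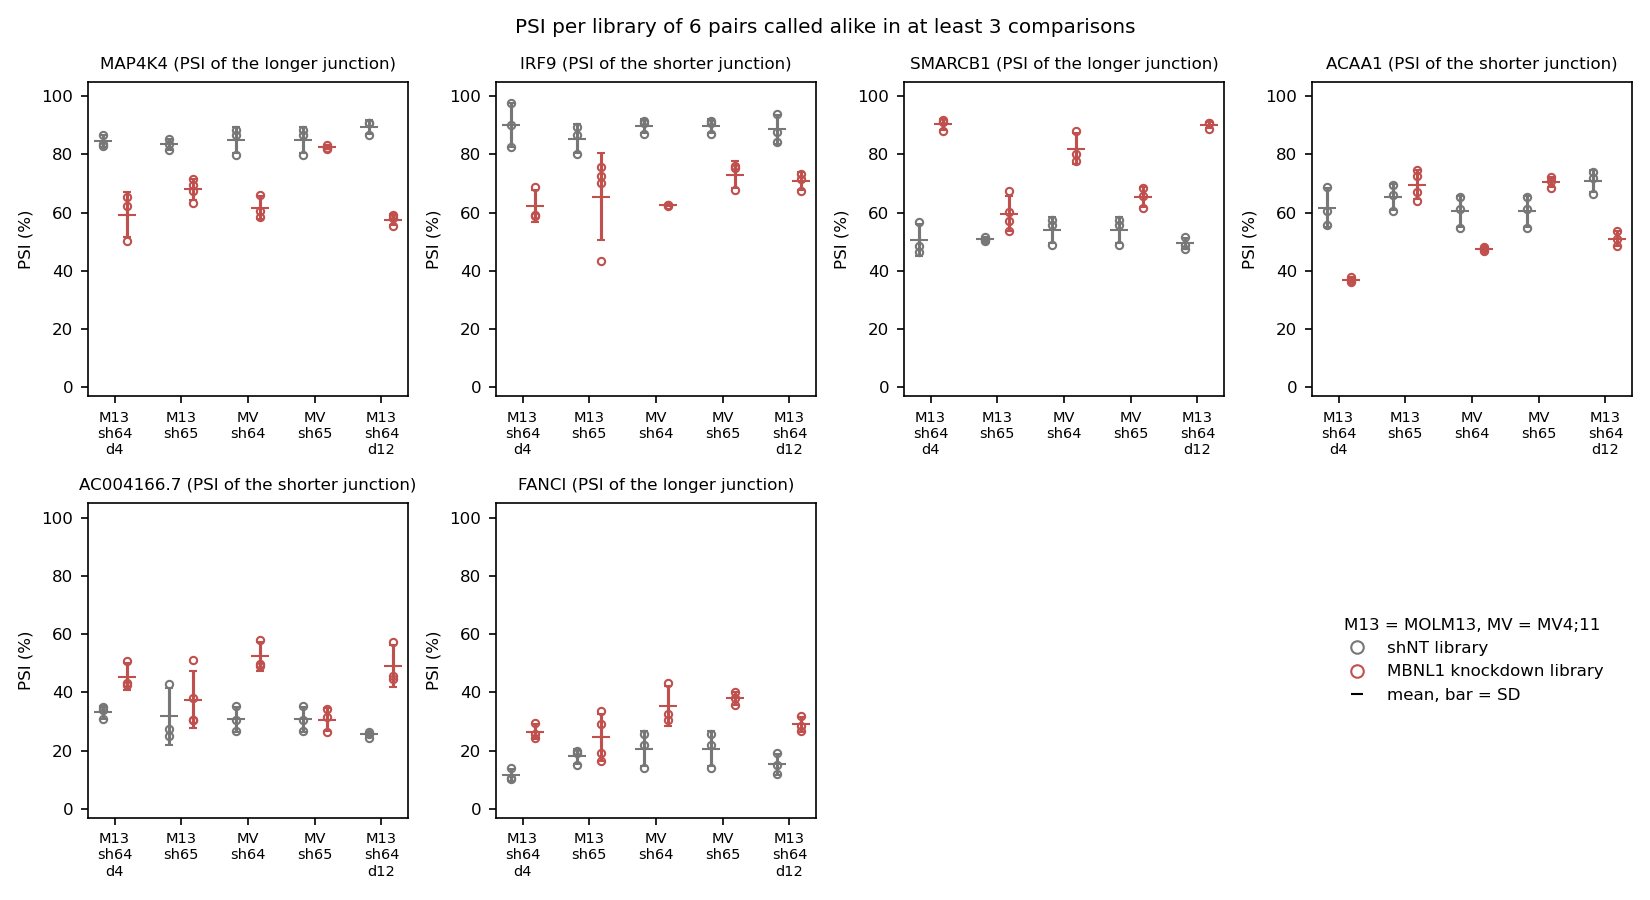
PSI in percent of 6 pairs called alike in at least 3 comparisons, in each library (points) with the mean and SD of each group, where grey is shNT, red is MBNL1 knockdown, and the title of each panel says which junction PSI counts. The longer junction of SMARCB1 reaches 77.8 to 91.7% with sh64 against 46.5 to 57.3% in the matching shNT libraries.

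Other large changes were called in fewer comparisons. MLXIP (MondoA, a glucose-sensing transcription factor) moved toward the longer junction in MOLM13 with both hairpins. Its shorter junction took 100, 97.7 and 100% with shNT and 72.3, 75.9 and 70.6% with sh64 at day 4 (fall of 26.3 points, SE 1.66, adjusted p = 0.0243, limma), and 98.2, 97.9 and 94.1% against 75.2, 80.9, 80.9 and 75.4% with sh65 (fall of 18.7 points, SE 2.12, adjusted p = 0.132, limma). At day 12 the difference was -2.27 points with overlap. In BAZ2B, a bromodomain protein gene, the shorter junction fell by 20.3 points at day 4 and fell by 24.1 at day 12 (SE 2.27, adjusted p = 0.0331, limma). In MV4;11 its difference was 1.06 points with sh64 and 14.1 points toward the shorter junction with sh65 (SE 4.63), neither called. The BAZ2B day 4 call was lost with the libraries paired and without any 1 library except sh64 replicate 2 (falls of 17.5 to 22.5 points).

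POU2F2, the octamer factor OCT2, moved toward the shorter junction at day 12 from 5.91 ± 5.56% to 49.8 ± 16.2% (SD, n = 3 each, adjusted p = 0.2, limma). That call held in 2 of 6 fits with 1 library left out. Several named pairs lay in zinc finger genes. ZNF652 fell from 97.4 ± 4.44% (n = 3) to 47.8 ± 11.0% (n = 2) for the shorter junction in MV4;11 with sh65, ZNF558 from 57.9 ± 4.14% to 24.1 ± 10.8% (n = 3 each) at day 4, and ZNF532 from 100% in all 3 shNT libraries to 79.5 ± 8.55% (n = 3) in MV4;11 with sh65. ZKSCAN3 rose in MV4;11 from 24.4 ± 3.14% (n = 2) to 59.9 ± 8.90% with sh64 and 65.4 ± 5.99% with sh65 (n = 3 each), against the same shNT libraries. None of these passed an adjusted p under 0.05 in limma, and with 1 library left out the calls held in 1 of 4 fits for ZNF652, 2 of 6 for ZNF558, 1 of 6 for ZNF532, and 2 and 3 of 4 for ZKSCAN3. In the other listing of the ZKSCAN3 junctions the changes were 16.2 points with sh64 and 33.3 with sh65, neither called.

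Of the RNA processing list, SRSF1 and RBM10 held named pairs. SRSF1, an SR protein that binds exons and takes part in the choice between competing donors, moved toward the shorter junction in MV4;11 with sh64, from 55.0, 57.1 and 54.2% to 86.1, 75.0 and 80.8% (25.2 points, SE 3.17, adjusted p = 0.115, limma). With sh65 there it was 77.8, 65.4 and 54.2% with overlap, and in MOLM13 it was not called in any comparison. CLASRP, an SR-related protein gene, used donors 4 bases apart, a change of reading frame. Its longer junction rose by 31.0 points in MV4;11 with sh64 (SE 5.74, adjusted p = 0.245, limma) and by 14.1 at day 12 (SE 2.55, adjusted p = 0.143, limma). RBM10, an RNA-binding protein gene, has donors 3 bases apart, and its longer junction fell from 64.3 ± 3.85% to 46.1 ± 6.52% at day 4 (SD, n = 3 each, adjusted p = 0.353, limma). With 1 library left out the RBM10 call held in 1 of 6 fits, those of CLASRP in 2 of 6 in MV4;11 and 1 of 6 at day 12, and that of SRSF1 in all 6. The day 4 calls of RBM10, ZNF558 and DCAF17 were lost with the libraries paired, and that of MLXIP held. The other listing of the RBM10 pair gave 3.75 points toward the shorter junction at day 4 and that of CLASRP gave -11.8 at day 12, neither called. INTS2, of the Integrator complex, moved toward the shorter junction by 36.4 points in MV4;11 with sh65 (SE 4.52, adjusted p = 0.247, limma), against 26.1 points in its other listing, not called.

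Among the remaining named pairs, TECPR1, an autophagy gene, passed the adjusted test in MV4;11 with sh65. Its shorter junction took 100% in all 3 sh65 libraries against 62.2 and 63.6% in the 2 shNT libraries with a value (37.1 points, SE 0.499, adjusted p = 0.0163, limma). In the other listing of the same TECPR1 junctions the change was 2.63 points and was not called. The sh65 values in MV4;11 lay at the ceiling without spread, and the adjusted p rests on this. With sh64 in MV4;11 the shorter junction took 57.9, 97.3 and 91.7%. In MOLM13 with sh65 it went the other way, at 67.3, 93.5, 53.7 and 54.8% against 90.5 and 100% (-27.9 points). In MOLM13 at day 4 it took 63.4, 58.6 and 43.2% with sh64 against 89.5, 95 and 39.4%, and at day 12 the change was -12.9 points. In each of these the groups overlapped and the change was not called. DCAF17 and CAMK2D, a ubiquitin ligase receptor and a calcium-dependent kinase, changed at day 4 by -38.1 and 36.6 points toward the shorter junction, CAMK2D on 2 libraries a group and with 24.5 points in its other listing, not called, and the DCAF17 call held in 1 of 6 fits with 1 library left out. The longer CAMK2D junction took 45.5 and 42.9% with sh64 at day 4 against 76.9 and 84.6% with shNT. It took 54.5 and 34.6% in the second shNT set of MOLM13, so the sh64 libraries overlapped that set. With shNT at day 12 it took 57.1, 55.0 and 65.6%. In MOLM13 with sh65, FAM126B (53.4 points, on 2 shNT libraries) and HEXDC (31.6 points) moved toward the shorter junction. With 1 library left out the HEXDC call held in all 7 fits, and that of FAM126B in 2 of 5. Both were lost in the other listing, at 10.4 points for HEXDC and 11.2 for FAM126B. The longer HEXDC junction took 77.9, 71.1 and 73.1% in the second shNT set of MOLM13, against 34.2, 37.6 and 29.1% with shNT at day 4, 41.1, 44 and 46.7% with shNT at day 12 and 29.2, 49.3, 48.4 and 42.7% with sh65, so the sh65 libraries overlapped the other MOLM13 shNT sets. Pairs in UBE2Q2P1, TMEM191A (whose junctions also differ in their 3′ splice site), FAM86B1, LPAL2 and AC004166.7 lie in pseudogenes or genes with near-identical copies, where reads can be split between copies, and are uncertain.

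Host genes were also grouped by class. Of 3180 tested pairs 4.75% were called in any comparison. Zinc finger genes held 7 of 122 (5.74%), 5 toward the longer junction, and chromatin regulators 5 of 77 (6.49%), 4 toward the longer: SMARCB1, BAZ2B, ARID2, KDM3A and CHD3. Ubiquitin pathway genes held 4 of 90 (4.44%), all toward the longer junction, RNA processing genes 3 of 82 (3.66%), translation genes 2 of 59 (3.39%), trafficking genes 1 of 61 (1.64%) and small GTPase genes 0 of 70. Genes that recognise 5′ splice sites held 1 of 13, the SRSF1 pair, and MBNL and CELF genes 0 of 1. In each comparison the largest class count was 3 pairs, so the shares are given as a description.

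Sequence features are given beside those of all tested pairs, without a test. Donors lay a median of 112 bases apart in the 64 pairs called toward the shorter junction and 100 in the 89 called toward the longer, against 81.5 over all tested pairs. The distance was a multiple of 3 in 46.9%, 33.7% and 36.7%, and 12 bases or fewer in 28.1%, 11.2% and 17.5%. The most common distance, 4 bases, was found in 167 tested pairs and in 3 and 6 of the called ones. Both donors were annotated in 79.7% and 76.4% of the called pairs and in 71.0% of tested pairs. The downstream donor had the higher score in 45.3% and 48.3% against 54.4%. At least part of the stretch overlapped annotated coding exon in 50% and 58.4% of called pairs against 59.5%. Where none did, at least part overlapped 5′ UTR in 28.1% and 22.5% of all called pairs against 19.1%. Called pairs also differed from tested ones in their starting level. The shNT share of the shorter junction lay between 10 and 90% in 87.5% and 83.1% of called pairs, against 53.6% of tested pairs.

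At least 1 MBNL-type tetramer lay in the stretch between the donors in 60.9% of pairs called toward the shorter and 60.7% of those called toward the longer junction, against 58.8% of tested pairs. In the 100 bases up to the upstream donor these shares were 78.1%, 79.8% and 79.2%. In the 100 bases after the downstream donor they were 67.2%, 79.8% and 70.8%, with a median GC content of 59.5%, 58.0% and 53.5%.

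Among comparisons that do not share controls, the correlation of changes across pairs was highest between those with sh64. Across pairs, the change with sh64 at day 4 had a Pearson r of 0.274 with that at day 12 (2849 pairs) and of 0.158 with sh64 in MV4;11 (2755 pairs). With sh65 in MOLM13 r was 0.04 (2767 pairs). The r between sh65 in MOLM13 and in MV4;11 was 0.097 (2765 pairs). Pairs are not independent replicates, and these values are a description. Of the 41 pairs called at day 4, 12 were also called at day 12, which is 29.3% of the first and 21.8% of the 55 at day 12, and 11 of the 12 moved alike. With sh65 in MOLM13 3 were shared, 7.32% of the 41 and 13.6% of the 22. Tested directly, the effect of sh64 differed between the lines in 19 of 2756 pairs (0.689%, against 0.762% of all junction pairs) and between the days in 20 of 2850 (0.702%, against 0.742%), with 0 at an adjusted p under 0.05 in limma in either test, beside 153 and 152 with an unadjusted p under 0.05 (0.0266% and 0.0238% of all junction pairs passed the adjusted rule).

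**Figure D4:**
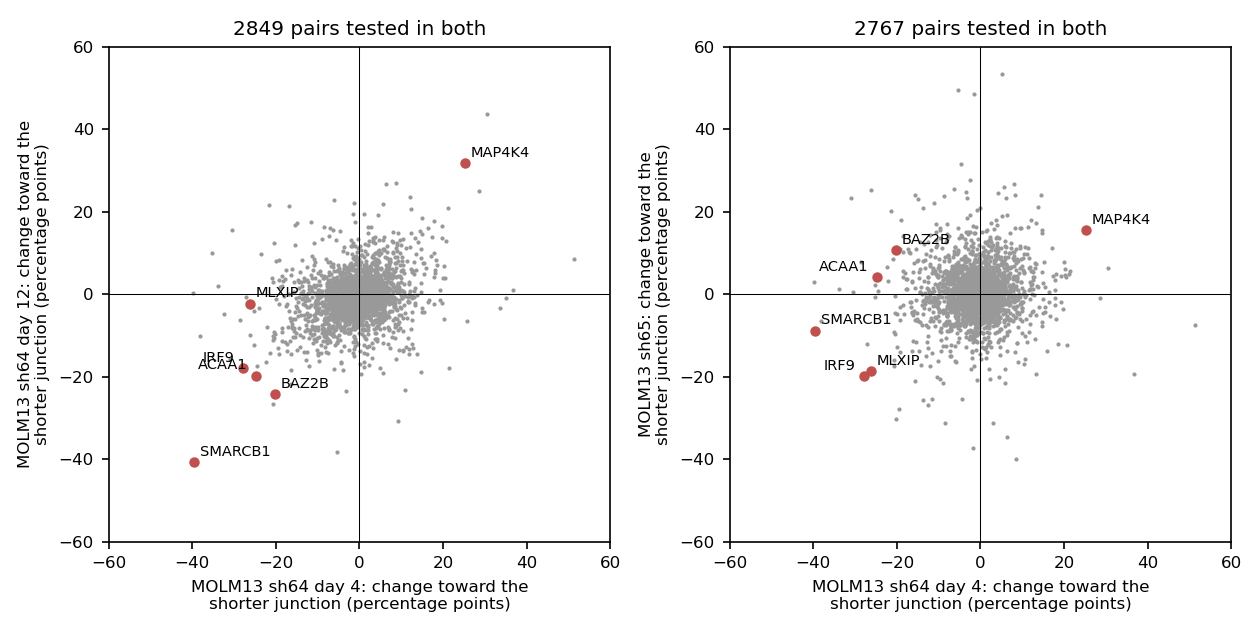
PSI change toward the shorter junction, in percentage points, with sh64 at day 4 (horizontal axes) against sh64 at day 12 (left, 2849 pairs) and sh65 in MOLM13 (right, 2767 pairs), where each point is a pair and named pairs are red. SMARCB1 lies at -39.7 against -40.6 and -8.82.

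In the list of genes that recognise 5′ splice sites, expression changed in 2 genes, both lower, and none rose. Of 34 or 35 tested members among 37 listed (U1 proteins, Sm and LSm proteins, U5 and U6 factors and regulators of U1 binding), LSM5 and LSM2, subunits of the ring that binds the end of U6 RNA, fell in some comparisons. LSM5 was at 9.98, 6.20 and 3.49 RPKM with sh64 at day 4 against 38.1, 25.7 and 13.8 with shNT, at 4.84, 4.80 and 4.5 against 20.8, 20.3 and 13.7 in MV4;11, and at 12.3, 10.8 and 11.8 against 21.7, 23.5 and 23.1 at day 12. The groups did not overlap, and the day 4 libraries ranked in the same order by replicate number in both groups. Its log2 fold change was -1.81 at day 4 (adjusted p = 0.274, or 0.0034 with the libraries paired, limma), -1.73 in MV4;11 (adjusted p = 0.00371, limma) and -0.91 at day 12 (adjusted p = 1.85e-05, limma). With sh65 it was -0.60 in MV4;11 (called, adjusted p = 0.108, limma) and -0.58 in MOLM13 (not called, adjusted p = 0.145, limma). LSM2 fell by 1.19 on the log2 scale in MV4;11 (adjusted p = 0.00743, limma) and by 0.74 at day 12 (adjusted p = 1.26e-05, limma), and at day 4 its change of -1.31 had an adjusted p of 0.307, or 0.00455 with the libraries paired (limma). The share of tested members called was 2.86% at day 4 (against 2.42% of all genes), 0% with sh65 in MOLM13 (3.24%, with 9 members at an unadjusted p under 0.05 in limma), 5.88% and 2.86% in MV4;11 with sh64 and sh65 (6.51% and 3.63%) and 5.71% at day 12 (5.52%), so it was near or under that of all genes. The part of these falls in the PSI changes was not tested. MBNL2 and MBNL3 lay at 0.191 to 0.733 and 0.0568 to 0.579 RPKM in the 28 libraries, under the level tested.

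**Figure D5:**
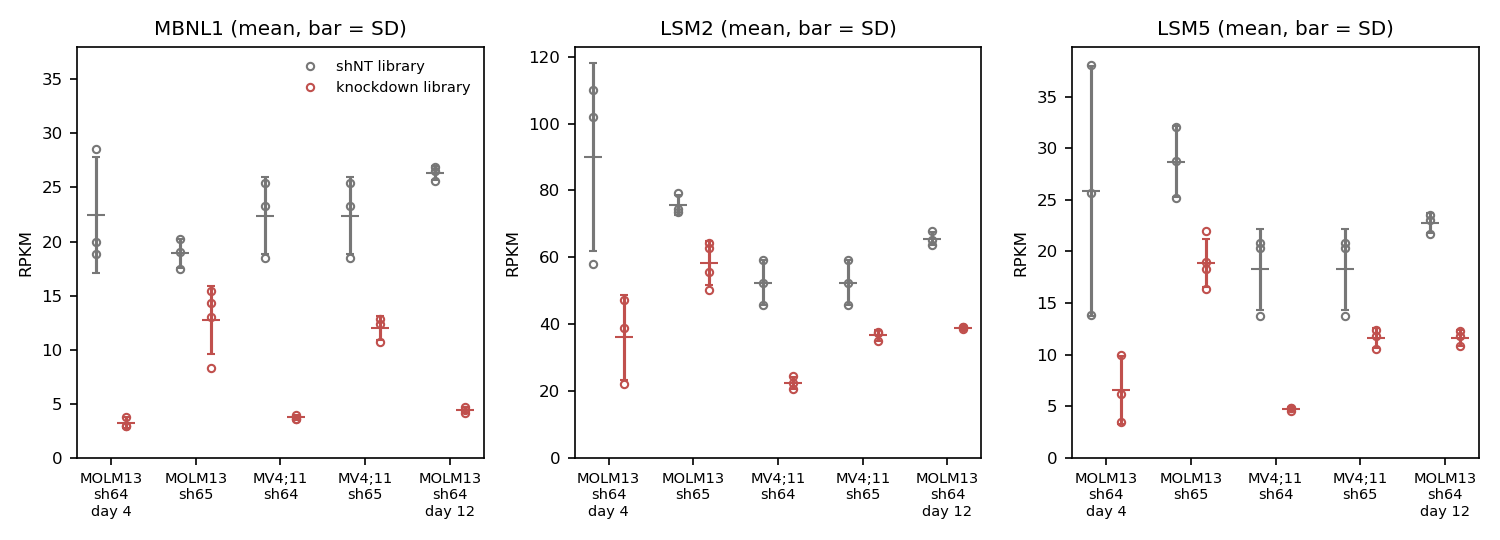
RPKM of MBNL1, LSM2 and LSM5 in each library (points) with the mean and SD of each group, by comparison. MBNL1 is at 2.94 to 4.65 RPKM with sh64 and 8.26 to 15.4 with sh65, against 17.5 to 28.6 in shNT libraries.

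Of genes that held a called pair, 0% to 8.57% were also called in expression in the same comparison, against 2.42% to 6.51% of all genes. With sh64, 0 of 39 tested host genes were called by limma at day 4 (2.42% of all genes were, and 5 hosts had an unadjusted p under 0.05), 3 of 35 in MV4;11 (8.57%, against 6.51%) and 3 of 49 at day 12 (6.12%, against 5.52%). With sh65 it was 0 of 22 in MOLM13 (against 3.24%, with 4 hosts at an unadjusted p under 0.05) and 1 of 24 in MV4;11 (4.17%, against 3.63%). The called hosts were CLASRP, RGS14 and WDYHV1 in MV4;11 with sh64, FANCI with sh65, and ADAM28, IRF9 and MLXIPL at day 12.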

How the data were processed

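Per the labels and methods, the authors ran STAR on GRCh37 (hg19), and their deposited files hold PSI as a fraction per event (MultiPath-PSI in AltAnalyze) and expression as gene RPKM. PSI is the share of the junction listed first. In intron retention events its median was 0% where the intron junction stood first and 98.5% where it stood second. Both orders of a pair summed to a median of 98.2%, so further junctions enter some values. The first row in the table stood for a pair. Of the donors, 84.1% lay on a GENCODE 44 donor lifted to GRCh37, and 0.0966% after a shift by 1 base.

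PSI was tested with limma 3.58.1 (R 4.3.3) over all events that had values in over 50% of each group's libraries, with Benjamini-Hochberg adjustment over all of them. Expression was tested on log2(RPKM + 1) where the mean was at least 1 RPKM in either group, with the same p threshold and a 1.5-fold change to call a gene. The limma fits were tested on simulated data. Replicate numbers paired the day 4 libraries (r of same-numbered PSI deviations 0.168, 0.105 and 0.3). No 2 libraries shared more than 0.66% of their PSI values between 0 and 1.

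Members, gene lists and tests were chosen with earlier results of these data known. Named were, per comparison, the 5 called pairs without overlap with the largest change in each direction, 1 per cluster and gene, and up to 10 pairs called alike in at least 3 comparisons. Genes of expression named were MBNL1 to MBNL3 and called members of the 5′ splice site list, and other pairs and host genes were named after their values were seen, where a count was 5 or fewer. Certain genes stay in the fits and counts, were left out of correlations, and are not reported here. Alternatives were another summary of pairs, logit PSI between 0.01 and 0.99, stricter thresholds, complete values, the replicate number as a block, a pseudocount of 0.1, no filter, and leaving out each library.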

Additional observations from a re-analysis of the deposited data

Results flagged for a closer look

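In MOLM13 with sh65, 1 of the 4 libraries lay far from the other three in 3 of 14 named pairs examined, measured as its gap to the nearest other library over the range of the group (Dixon's 95% critical value for 4 samples, which chance passes in about 1 of 20 groups). This ratio was 0.836 in RCN3, 0.917 in FAM126B and 0.836 in IRF9. In IRF9 and FAM126B it was replicate 3 and in RCN3 replicate 2.

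The effect of sh64 was called different between MV4;11 and MOLM13 at day 4 in 3 named pairs, on the unadjusted p of the test of the difference. The difference toward the shorter junction was 64.6 points in DCAF17 (adjusted p = 0.334, limma), -42.8 in CAMK2D (adjusted p = 0.137, limma) and -26.7 in RP11-151N17.2 (adjusted p = 0.326, limma). In MV4;11, sh64 was called different from sh65 in 5 named pairs, by 21.7 points toward the shorter junction in AC004166.7, 20.8 in MAP4K4, 18 in LPAL2, -16.7 in SMARCB1 and -23.1 in ACAA1, of which ACAA1 alone passed the adjusted test in limma. Over all tested pairs, 0.689% were called between the lines (0.762% of all junction pairs) and 0.898% between the hairpins (1.08%). The named pairs were picked for large changes or repeated calls in some of the same libraries, which favours such differences.

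In several named pairs every knockdown library lay on one side of its controls in one comparison and on the other side in another. ACAA1 changed by -24.8 points toward the shorter junction at day 4 and by -12.9 in MV4;11 with sh64, and stood at 10.2 in MV4;11 with sh65, opposite also to day 12. BAZ2B changed by -20.3 points at day 4 and stood at 14.1 in MV4;11 with sh65, opposite to both days of sh64. DCAF17, at -38.1 points at day 4, was opposite in MV4;11 with sh64, CAMK2D, at 36.6, in MV4;11 with sh65, and RP11-151N17.2, at 20.5, in MV4;11 with either hairpin. Apart from the differences tested above, these were not tested. The 39 named pairs lacked overlap in at least 1 comparison by the naming rule, and 7.34% to 16.5% of all tested pairs lacked it in a given comparison. How often opposite sides arose over all pairs was not counted.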

How the results depend on the processing

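With an adjusted p under 0.05, 5 pairs were called at day 4 (20% toward the shorter junction), 0 with sh65 in MOLM13, 4 and 1 (100% toward the shorter) with sh64 and sh65 in MV4;11, and 6 at day 12 (66.7%). With a PSI difference above 20 points the counts were 14, 7 (85.7% toward the shorter), 18, 11 and 12 in the same order. The replicate number as a block left 36 at day 4 (within 1.5 times), 22 with sh64 and 17 with sh65 in MV4;11 and 33 at day 12. Outside day 4 same-numbered libraries did not deviate together and share only a number. No paired analysis was possible for MOLM13 with sh65 because its groups share fewer than 2 replicate numbers. Complete values, logit PSI, 1 pair per cluster and the last listing of a pair kept the counts within 1.5 times. Without 1 library the counts ran from 25 to 36 at day 4, 14 to 49 with sh65 in MOLM13, 29 to 54 and 22 to 36 in MV4;11, and 38 to 48 at day 12.

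Among calls of named pairs, leaving out 1 library kept 153 and lost 87, logit PSI kept 35 and lost 9, the replicate block kept 11 and lost 23, and the last listing kept 19 and lost 13. It turned FAM86B1 in MV4;11 with sh65 to 3.38 points toward the shorter junction.

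Called 5′ splice site genes became 2 at day 4 with the block and 0 with no filter, 2 with sh65 in MOLM13 at a pseudocount of 0.1, and 0 with sh65 in MV4;11 with no filter or with the block. Called host genes became 1 at a pseudocount of 0.1 and 2 with the block at day 4, and 1 and 0 with no filter in MV4;11 with sh64 and sh65. Without 1 library, 5′ splice site genes ran from 0 to 2 at day 4, 0 to 4 with sh65 in MOLM13, 2 to 4 and 0 to 2 in MV4;11, and host genes from 0 to 1, 0 to 3, 1 to 7 and 0 to 1, with 2 and 3 at day 12 in every fit. The causes were not tested. The block on direction and on expression, and leaving out libraries for expression, were chosen after seeing the data. The read depth behind PSI is unknown, so counting error could not be given.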
